A study of Mus musculus with 12 samples.

Results

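The growth hormone receptor and the STAT5 pathway behind it were followed through 8 genes in mouse liver, chosen by name for their place in this pathway: Ghr, Jak2, Stat5a, Stat5b, Bcl6, Socs2, Socs3 and Cish. The choice was made with earlier results of these data known. Each gene is represented by the probe set with the highest mean over the arrays, and all 8 were found among 22180 genes with a probe set of their own. The samples were liver RNA of male C57BL6 mice in 4 groups of 3 arrays, 1 Affymetrix array per sample. The high-fat MSX group ate a diet with 45% of its energy from fat that contained 0.5% (w/w) of MSX, a maple syrup extract, and the high-fat control group ate the 45% fat diet without it. The low-fat MSX group ate a diet with 10% of its energy from fat with the same share of extract, and the low-fat control group ate the 10% fat diet alone. All mice were fed freely for 12 weeks, from 6 to 18 weeks of age. Whether the livers were collected at a fixed time of day or after a fast is not given in the sources used here. All levels below are log2 values, so that a difference of 1 is a doubling, and they are compared between arrays for 1 gene, not between genes.

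Growth hormone is released by the pituitary in pulses, and in male rodents the pulses are tall and well separated. In hepatocytes each pulse brings pairs of growth hormone receptors together, the kinase JAK2 on the receptor phosphorylates STAT5a and STAT5b, and STAT5 moves to the nucleus and binds DNA. Socs2 and Cish are well known genes induced by STAT5, and their proteins dampen the signal at the receptor. Bcl6 encodes a repressor that is more abundant in male than in female mouse liver, is lowered by growth hormone and binds many of the same sites as STAT5. Socs3 is a related inhibitor that is best known as a target of STAT3 downstream of interleukin 6.

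The promoters of the genes were read for the letters TTCNNNGAA, the core of the site that STAT5 and BCL6 recognise, which reads the same on both strands. RefSeq promoter windows of 300 bases (250 before and 50 after an annotated start site, GRCm38.p6) were matched for 7 of the 8 genes, 11 windows in all, with Socs2 as the exception. The motif lay in 4 of the 11 windows, against 8.3% of 32851 windows of that length. Those windows belong to Bcl6, Cish and Socs3, with Bcl6 counted by both of its windows. Counted by gene, 9.55% of 27025 genes with a window had a match. The motif stood 3 times in the window of a Bcl6 start site that lies 7569 bases downstream of the first, a number reached by 0.0335% of all windows. The first Bcl6 window and the Socs3 window held it once, and the Cish window held it 2 times just past the start site. No match was found in the windows of Ghr, Jak2, Stat5a and Stat5b, which says only that these letters are not in those windows. The stretches with a match are shown because these genes, with Socs2, are those of the 8 whose levels varied most between arrays. Capitals mark the motif, and each stretch is given 5′ to 3′ on the gene's strand with up to 20 bases on either side.
Bcl6, second window, chr16:23981343-23981471, minus strand, bases −188 to −60 from the start site: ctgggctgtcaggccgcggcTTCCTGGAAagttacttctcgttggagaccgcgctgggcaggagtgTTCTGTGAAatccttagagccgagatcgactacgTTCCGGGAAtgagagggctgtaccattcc
Bcl6, first window, chr16:23988942-23988990, minus strand, bases −138 to −90 from the start site: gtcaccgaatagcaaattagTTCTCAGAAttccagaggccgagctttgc
Cish, chr9:107296639-107296678, plus strand, bases −20 to 20 from the start site: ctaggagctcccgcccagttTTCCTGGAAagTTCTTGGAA
Socs3, chr11:117969492-117969540, minus strand, bases −174 to −126 from the start site: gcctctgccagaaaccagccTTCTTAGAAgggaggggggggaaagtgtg
The first motif of the second Bcl6 window and the first motif of Cish have the same 9 letters. A match of letters is a description of the sequence. The arrays do not measure binding.

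**Figure D1:**
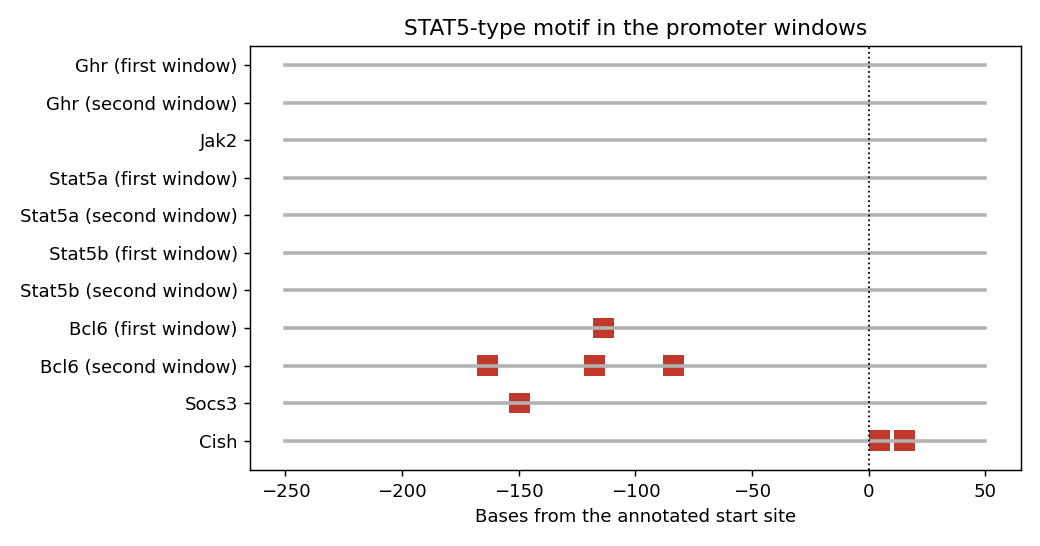
Position of the motif TTCNNNGAA (red blocks) in 11 promoter windows of 7 genes, in bases from the annotated start site (dotted line), with each grey line a window from 250 bases before to 50 after the start site. The second Bcl6 window holds 3 matches and the Cish window 2, both of them past the start site.

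Across the whole table the 12 arrays had medians between 4.68 and 4.75, and any pair of arrays correlated at 0.973 to 0.984. All 8 hepatocyte markers were measured, with Alb at a mean log2 value of 13.9 and Ttr at 13.5, and their median stayed between −0.13 and 0.09 of its mean in every array. High-fat control replicate 1 stood apart in other cell types. There 9 stellate cell and matrix markers had a median distance of 0.59 from their 12-array means, and 6 cholangiocyte markers one of 0.44. In a piece of tissue, fewer cells of a type and less RNA per cell cannot be told apart. The design text names the 3 samples of each group biological replicates, and the p-values measure the spread between those samples.

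The 8 genes fell into sets with very different spread between arrays of the same group. Measured as the pooled standard deviation within the 4 groups, the spread was 0.13 for Ghr, 0.12 for Jak2, 0.19 for Stat5a and 0.12 for Stat5b, beside a median of 0.19 over all 22180 genes. It was 1.19 for Socs2, 1.002 for Bcl6 and 0.69 for Cish. Ranked from the largest spread, Socs2 was number 6, Bcl6 number 16 and Cish number 68 of 22180. Among the 11501 genes with a mean of at least 5, Socs2 ranked 5, Bcl6 13 and Cish 46. Socs3 was between these sets, with a spread of 0.34 and rank 1807. Ghr, Jak2 and Stat5b thus varied less within groups than the median gene, and Stat5a about as much. Between the highest and the lowest of the 12 arrays Socs2 varied 10.6-fold, Bcl6 10.3-fold and Cish 4.58-fold. Receptor, kinase and both STAT5 genes varied at most 1.66-fold. For Socs2 and Cish these spreads, ranks and folds are those of the brighter probe set. Their other probe sets had narrower ranges, from 5.19 to 6.47 for Socs2 and from 5.05 to 5.89 for Cish. The share of the variance over the 12 arrays that lay between the 4 groups did not follow this division. It was 65.4% for Jak2, 46.6% for Ghr, 35.5% for Stat5a and 8.45% for Stat5b, and 40.6% for Bcl6, 46.4% for Socs3, 12.7% for Socs2 and 10.8% for Cish. With groups this small, part of the variance lies between them by chance alone. The size of that part was not worked out, nor was the share over all genes. The shares are therefore a description and do not measure an effect of diet or extract.

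**Figure D2:**
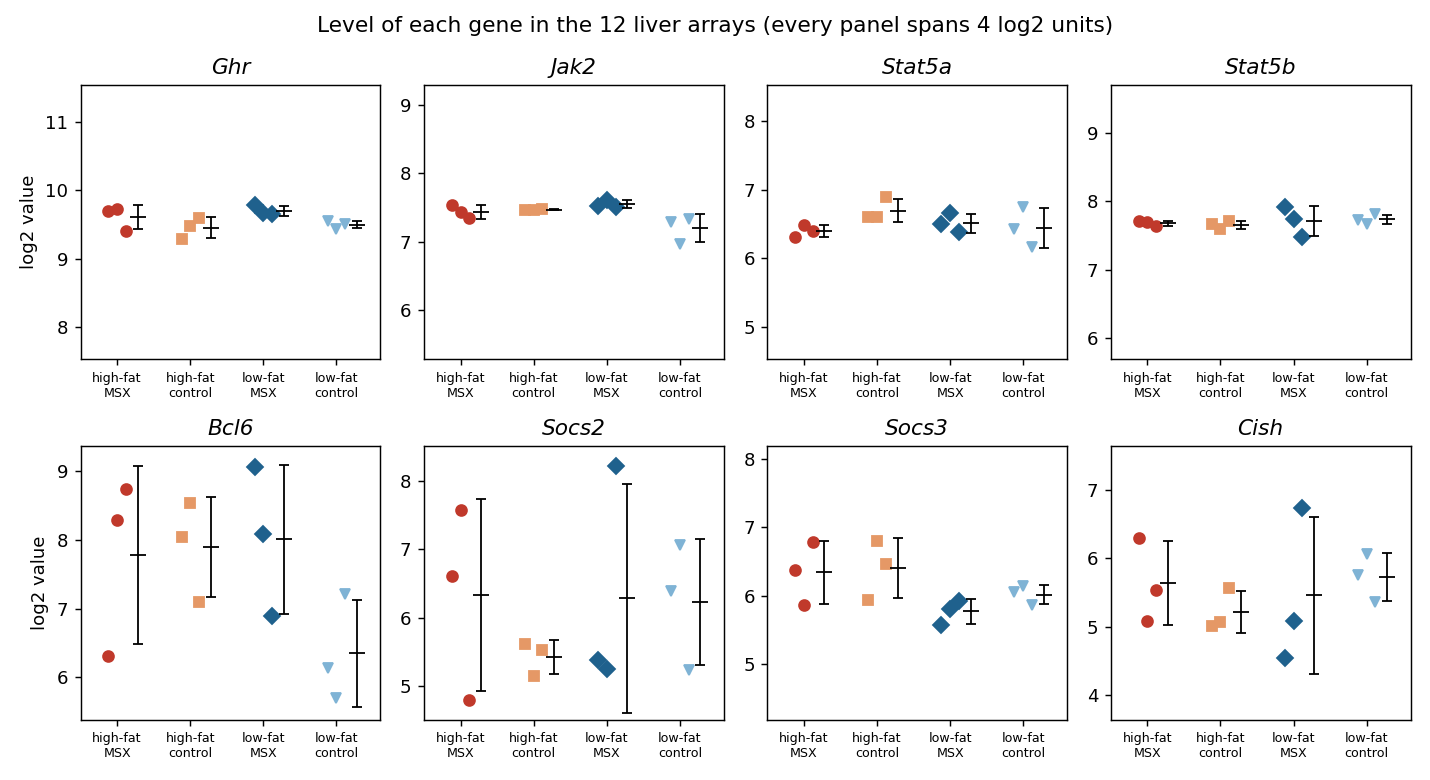
Log2 level of the 8 genes in each of the 12 arrays (1 symbol per array), with the mean and SD of each group of 3 in black beside it. Every panel spans 4 log2 units, so that the narrow ranges of Ghr, Jak2, Stat5a and Stat5b can be set against the wide ones of Bcl6, Socs2 and Cish.

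**Figure D3:**
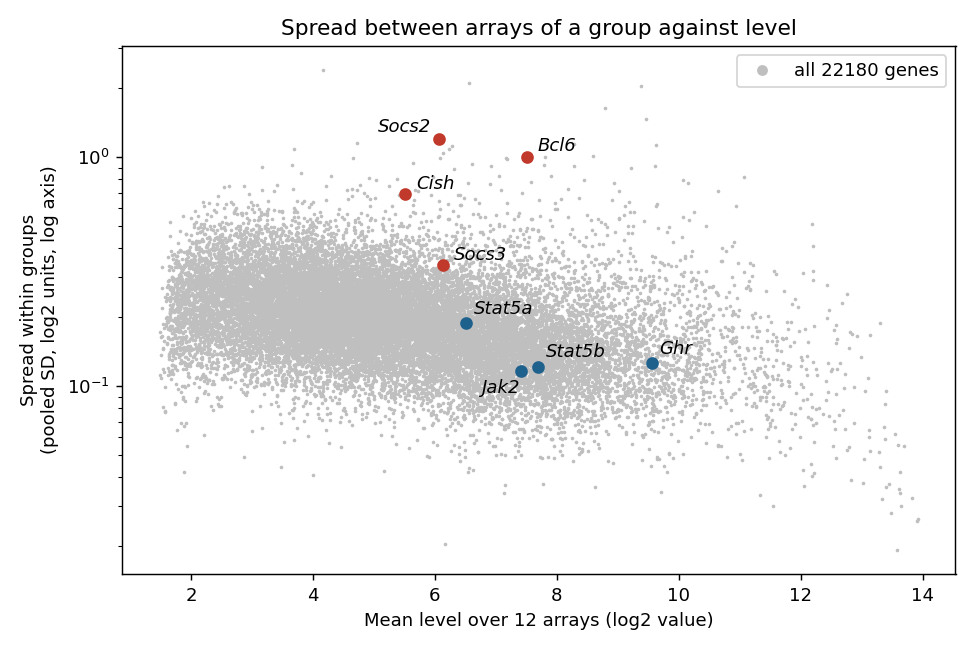
Pooled SD within the 4 groups (log2 units, log axis) against the mean level over 12 arrays for all 22180 genes (grey), with the 8 genes named. Socs2 at 1.19, Bcl6 at 1.002 and Cish at 0.69 lie along the upper edge, and Ghr, Jak2 and Stat5b lie at 0.12 to 0.13, below the median of 0.19.

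Ghr encodes the receptor itself. Its level was 9.70, 9.73 and 9.41 in the high-fat MSX arrays, against 9.29, 9.47 and 9.60 in the high-fat control arrays. On the low-fat diet it was 9.78, 9.66 and 9.65 with MSX, against 9.55, 9.44 and 9.52 without. The low-fat MSX arrays all lay above the low-fat control arrays, and the high-fat groups overlapped. The difference with MSX was 0.20 on the low-fat diet (SE 0.12, adjusted p = 0.725) and 0.16 on the high-fat diet (SE 0.12, adjusted p = 0.858). Over both diets Ghr averaged 9.66 ± 0.13 with MSX and 9.48 ± 0.11 without (SD, n = 6 each), a difference of 0.18 with a 95% interval of −0.01 to 0.37 (adjusted p = 0.538 by limma). From the highest mean the order of the groups was low-fat MSX, high-fat MSX, low-fat control and high-fat control, and no neighbours in that order differed beyond their spread.

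Jak2 encodes the kinase bound to the receptor. The high-fat MSX arrays had 7.54, 7.43 and 7.34, against 7.47, 7.47 and 7.48 in the high-fat control arrays. With MSX on the low-fat diet the values were 7.53, 7.61 and 7.51, against 7.30, 6.97 and 7.34 in the low-fat control arrays. Low-fat control was thus the group that stood low, below every low-fat MSX and every high-fat control array. The difference was 0.35 for MSX on the low-fat diet (SE 0.12, adjusted p = 0.447) and 0.27 for the high-fat diet without extract (SE 0.12, adjusted p = 0.717), and neither passed the threshold of an adjusted p under 0.05. These comparisons share the low-fat control arrays. The difference between the extract effects on the high-fat and the low-fat diet was −0.38 (SE 0.17, adjusted p = 0.955).

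The sinusoidal endothelial markers, 7 genes of the cells that line the liver's blood spaces, were also low in 2 of the 3 low-fat control arrays. Their median lay 0.23 and 0.34 below the mean over the arrays in low-fat control replicates 1 and 2, and 0.03 above it in replicate 3. High-fat control replicate 3 was as low, 0.23 below the mean, with Jak2 at 7.48. Their summed log2 level ran from 56.9 to 58.6 in high-fat MSX, from 55.6 to 58.5 in high-fat control, from 56.0 to 58.5 in low-fat MSX and from 54.4 to 57.7 in low-fat control, with no marker near 0. Across the 12 arrays Jak2 and these markers had a Pearson r of 0.74 (permutation adjusted p = 0.0138) and a Spearman rho of 0.67 (permutation adjusted p = 0.0478). The r was 0.40 without low-fat control replicates 1 and 2, so that the relation rests largely on those arrays. With group means removed and all 12 arrays kept it was 0.61. This relation was among the 8 chosen after seeing the data, with the adjustment over those 8. The part of these cells in the Jak2 difference was not tested.

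Stat5a and Stat5b encode the transcription factors that the kinase activates. They are closely alike in sequence, and whether a probe set takes up RNA of the other gene was not tested. Stat5a was at 6.32, 6.49 and 6.40 in the high-fat MSX arrays, against 6.60, 6.60 and 6.90 in the high-fat control arrays, without overlap. The difference was −0.30 (SE 0.15, adjusted p = 0.75). On the low-fat diet Stat5a was at 6.50, 6.66 and 6.38 with MSX and at 6.43, 6.75 and 6.17 without, fully overlapping.

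Stat5b, the form that dominates growth hormone signalling in mouse liver, was the steadiest of the 8 genes by its SD over all 12 arrays. It was at 7.70, 7.69 and 7.64 in high-fat MSX, against 7.67, 7.59 and 7.71 in high-fat control. In low-fat MSX it was at 7.91, 7.74 and 7.48, against 7.72, 7.67 and 7.81 in low-fat control. The groups overlapped in every comparison. Averaged over both diets, the 95% interval of the MSX difference ran from −0.18 to 0.18, so that a change by more than 0.18 in either direction lies outside it. Stat5a and Stat5b had a Pearson r of −0.07 across the arrays (permutation adjusted p = 0.897).

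Bcl6 encodes the repressor that growth hormone lowers. In the high-fat MSX arrays it was at 6.31, 8.30 and 8.75, and in the high-fat control arrays at 8.05, 8.55 and 7.10. Low-fat MSX arrays had 9.06, 8.09 and 6.89, and low-fat control arrays had 6.13, 5.69 and 7.21. The lowest arrays of the 12 were low-fat control replicates 2 and 1, and the highest was low-fat MSX replicate 1. Within a single group the values lay between 1.45 and 2.44 apart. Means were 8.01 ± 1.09 in low-fat MSX and 6.34 ± 0.78 in low-fat control (SD, n = 3 each), a difference of 1.67 (SE 0.64, adjusted p = 0.532). High-fat control, at 7.90 ± 0.73, differed from low-fat control by 1.55 (SE 0.64, adjusted p = 0.683). Both intervals exclude 0 before adjustment (0.28 to 3.06 and 0.16 to 2.94), the groups overlapped by 1 array, and neither difference passed the threshold over all genes. Each is measured against the same 3 low-fat control arrays. Under the other settings the first difference lay between 1.14 and 2.23 (adjusted p between 0.343 and 0.837) and the second between 1.23 and 1.99 (adjusted p between 0.474 and 0.95).

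The Kupffer cell and macrophage markers, 9 genes measured, moved with Bcl6. Their median distance from the mean over the arrays was −0.03, 0.05 and 0.17 in high-fat MSX and 0.55, 0.38 and −0.64 in high-fat control. In low-fat MSX it was 0.26, 0.22 and −0.11, and in low-fat control −0.45, −0.41 and 0.21. The summed log2 level of the list ran from 66.2 to 67.4 in high-fat MSX, from 60.5 to 70.1 in high-fat control, from 64.7 to 67.7 in low-fat MSX and from 62.3 to 67.8 in low-fat control, and no marker was below 4.95. Bcl6 and the list had a Pearson r of 0.72 (permutation adjusted p = 0.019) and a Spearman rho of 0.71 (permutation adjusted p = 0.0478) over the 12 arrays, and an r of 0.55 without low-fat control replicates 1 and 2. With group means removed the r was 0.65. With the sinusoidal endothelial markers Bcl6 had an r of 0.60 (permutation adjusted p = 0.0486), a rho of 0.43 (permutation adjusted p = 0.17) and an r of 0.21 without the same arrays. Both relations were among the 8 chosen after seeing the data, with the adjustment over those 8, so they are a description. The other cell type lists were not set against Bcl6 in this way. The part of these cells in the Bcl6 values was not tested.

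Socs2, an adaptor of ubiquitin ligation that limits growth hormone signalling and whose loss makes mice grow larger, was at 6.61, 7.58 and 4.81 in the high-fat MSX arrays. The high-fat control arrays had 5.62, 5.15 and 5.52. Low-fat MSX arrays had 5.39, 5.26 and 8.22, and low-fat control arrays had 6.39, 7.06 and 5.24. In high-fat control the 3 arrays were low and close together. In each of the other groups at least 1 array was high and at least 1 was low. The difference with MSX was 0.90 on the high-fat diet (SE 0.76, adjusted p = 0.88) and 0.06 on the low-fat diet (SE 0.76, adjusted p = 0.993), with 95% intervals of −0.75 to 2.55 and −1.59 to 1.71. At these widths a change by a factor of 2 in either direction on the low-fat diet was not detectable. The other Socs2 probe set was dimmer, with group means of 5.43 in high-fat MSX, 5.30 in high-fat control, 5.69 in low-fat MSX and 5.73 in low-fat control. It followed the first with an r of 0.75 over the 12 arrays, and both were highest in low-fat MSX replicate 3.

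Cish, the founding member of the SOCS family, was at 6.30, 5.08 and 5.53 in high-fat MSX, against 5.004, 5.07 and 5.57 in high-fat control. It was at 4.54, 5.09 and 6.74 in low-fat MSX, against 5.76, 6.07 and 5.36 in low-fat control. Low-fat MSX held both the lowest and the highest array of the 12. The difference with MSX was 0.42 on the high-fat diet (SE 0.45, adjusted p = 0.921) and −0.27 on the low-fat diet (SE 0.45, adjusted p = 0.912). Its other probe set ran with the first at an r of 0.84.

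Bcl6 and Cish ran in opposite directions from array to array. Low-fat MSX replicate 1 had the highest Bcl6 (9.06) and the lowest Cish (4.54). Low-fat control replicate 2 had the lowest Bcl6 (5.69) and the third highest Cish (6.07). In 10 of 12 arrays the genes lay on opposite sides of their medians. Pearson's r was −0.77 (permutation p = 0.0036, adjusted p = 0.0432 over 12 relations) and Spearman's rho was −0.79 (permutation p = 0.00351, adjusted p = 0.0421). Without low-fat control replicates 1 and 2, the arrays farthest from the median of Bcl6, the r was −0.79, and with group means removed it was −0.86, so that the relation held between arrays that ate the same diet. Of the 22179 other genes, 36 had a lower r with Bcl6 than Cish had. With the other Cish probe set the r was −0.66 (permutation adjusted p = 0.0367) and the rho −0.59 (permutation adjusted p = 0.0647), which did not pass. The relation with that probe set was among the 8 chosen after seeing the data, with the adjustment over those 8.

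Both probe sets of Socs2 had a similar rho with Bcl6, adjusted over different sets of relations. The r of the brighter Socs2 probe set with Cish was 0.64 (permutation adjusted p = 0.155) and that with Bcl6 −0.52 (permutation adjusted p = 0.255). Its rho with Bcl6 was −0.61 (permutation p = 0.0396, adjusted p = 0.208), and none of these passed after adjustment over the 12 relations. The other Socs2 probe set had an r of −0.62 with Bcl6 (permutation adjusted p = 0.0368) and a rho of −0.64 (permutation p = 0.0298, adjusted p = 0.0478). These were adjusted over the 8 relations added after seeing the data. The r was −0.48 without low-fat control replicates 1 and 2. Between the other probe sets of Socs2 and Cish the r was 0.78 (permutation adjusted p = 0.0138), and 0.45 without low-fat control replicate 2 and low-fat MSX replicate 3. High-fat MSX replicate 2 was the array that departed, with Socs2 at 7.58, Bcl6 at 8.30 and Cish at 5.08. In the same array the other Socs2 probe set was at 5.30, below its own mean of 5.54, so that the probe sets of this gene disagreed there. The Kupffer cell and macrophage markers, which ran with Bcl6, had a Pearson r of −0.56 with Cish (permutation adjusted p = 0.0604) and a Spearman rho of −0.80 (permutation adjusted p = 0.023). This relation, and that between the other probe sets of Socs2 and Cish, were also added after seeing the data.

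**Figure D4:**
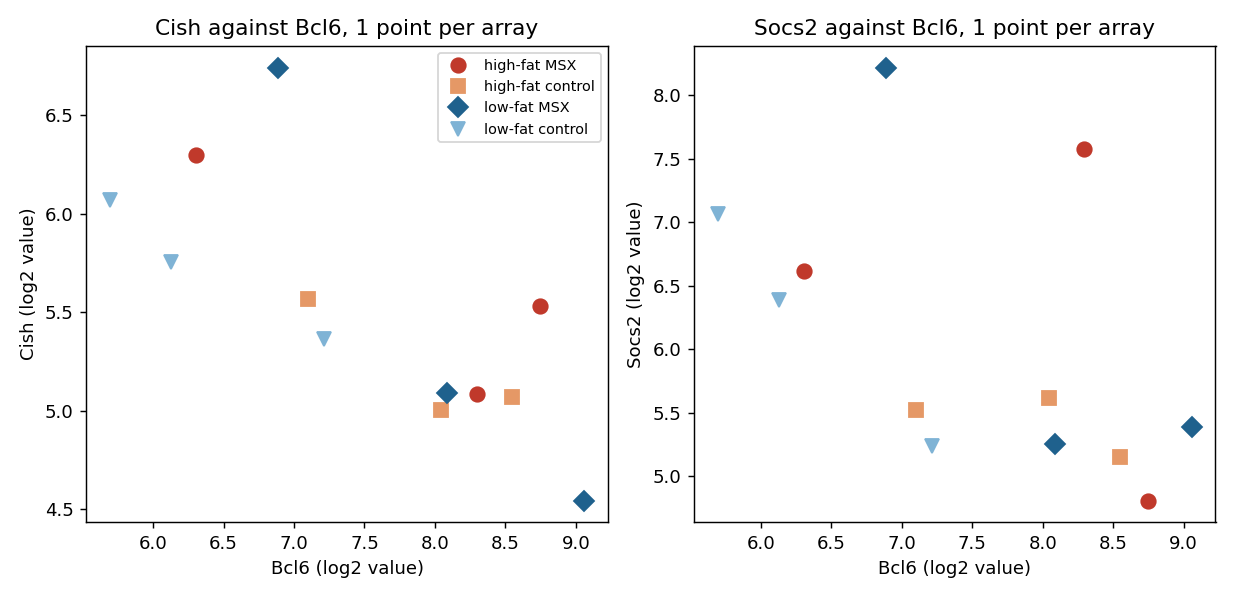
Log2 level of Cish (left) and Socs2 (right) against Bcl6, 1 point per array with the 4 groups by colour and shape. Cish is at 4.54 in the array with the highest Bcl6 and at 6.07 in the one with the lowest, with arrays of all groups along the slope. For Socs2, high-fat MSX replicate 2 lies away from the others at a Bcl6 of 8.30 and a Socs2 of 7.58.

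No relation of Bcl6, Cish or Socs2 with the genes of the male or female liver programme passed the threshold across arrays. Bcl6 had an r of 0.09 with the median of 20 male-biased liver genes and −0.20 with that of 22 female-biased ones (permutation adjusted p = 0.897 and 0.738). For Cish these values were 0.19 and 0.00 (permutation adjusted p = 0.738 and 0.995). Socs2 and the male-biased genes had an r of 0.54 (permutation adjusted p = 0.255), which was 0.02 without low-fat MSX replicate 3 and high-fat MSX replicate 2.

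Socs3 was at 6.38, 5.87 and 6.79 in high-fat MSX, against 5.94, 6.81 and 6.47 in high-fat control. It was at 5.58, 5.81 and 5.93 in low-fat MSX, against 6.06, 6.14 and 5.86 in low-fat control. The 4 highest values all came from high-fat arrays, and 1 array of each high-fat group lay within the low-fat range. Over both extract states Socs3 averaged 6.38 ± 0.40 on the high-fat diet and 5.90 ± 0.20 on the low-fat diet (SD, n = 6 each), a difference of 0.48 with a 95% interval of 0.12 to 0.84 before adjustment and an adjusted p of 0.703. The difference was 0.57 with extract (SE 0.23, adjusted p = 0.999) and 0.39 without (SE 0.23, adjusted p = 0.803). The other Socs3 probe set was dimmer and followed the first with an r of 0.59. Its group means were 3.94 in high-fat MSX, 3.84 in high-fat control, 3.56 in low-fat MSX and 3.76 in low-fat control. The high-fat and low-fat control means of that probe set thus lay close together.

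The acute phase targets of STAT3, liver proteins released in inflammation, lay highest in 2 of the arrays with high Socs3. In high-fat control replicate 2 their median was 0.50 above the mean over the arrays, and in high-fat MSX replicate 3 it was 0.30. Those arrays had the highest Socs3 values, 6.81 and 6.79. In high-fat control replicate 3, with Socs3 at 6.47, the median was 0.11 above the mean. In high-fat MSX replicate 1, with Socs3 at 6.38, it was 0.06 below. Over the 12 arrays Socs3 and the median of 19 acute phase genes had a Pearson r of 0.74 (permutation adjusted p = 0.0163) and a Spearman rho of 0.54 (permutation adjusted p = 0.086). Without high-fat control replicate 2 and high-fat MSX replicate 3 the r was 0.24, so that the relation rests largely on them. With group means removed and all 12 arrays kept it was 0.81. This relation was among the 8 chosen after seeing the data, with the adjustment over those 8. On the high-fat diet without extract the log2 fold change was above 0 for 19 of 19 genes (median 0.37, beside −0.00479 over all genes), and 0 of 19 passed the threshold. The list was chosen with earlier results of these data known.

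By limma, 0 of the 8 genes passed the threshold in any comparison. In the whole table the share past it was 0.0361% for MSX on the high-fat diet, 0.158% for MSX on the low-fat diet, 0.018% for the high-fat diet without extract and 0% for the high-fat diet with extract. It was 0.261% for the average extract effect, 0.0225% for the average diet effect and 0% for the difference of the extract effects. At an unadjusted p under 0.05 there were 0 genes for MSX on the high-fat diet, beside 6.99% of all genes. On the low-fat diet there were 2 for MSX, Jak2 and Bcl6, beside 8.05%, and without extract the high-fat diet had 2, again Jak2 and Bcl6, beside 6.78%. The high-fat diet with extract had 1, Socs3, beside 4.56%, the average diet effect had 1, Socs3, beside 5.94%, and the difference of the extract effects had 1, Jak2, beside 5.09%. The average extract effect had 0, beside 9.66%. Groups did not overlap for Stat5a with MSX on the high-fat diet (12.2% of all genes), for Ghr and Jak2 with MSX on the low-fat diet (13.9%) and for Jak2 on the high-fat diet without extract (11.4%). There was no such gene for the high-fat diet with extract (9.44%), the average extract effect (1.09%) or the average diet effect (0.325%). Median log2 fold changes of the 8 genes were −0.01, 0.06, 0.10 and −0.06 in the first 4 of these comparisons.

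**Figure D5:**
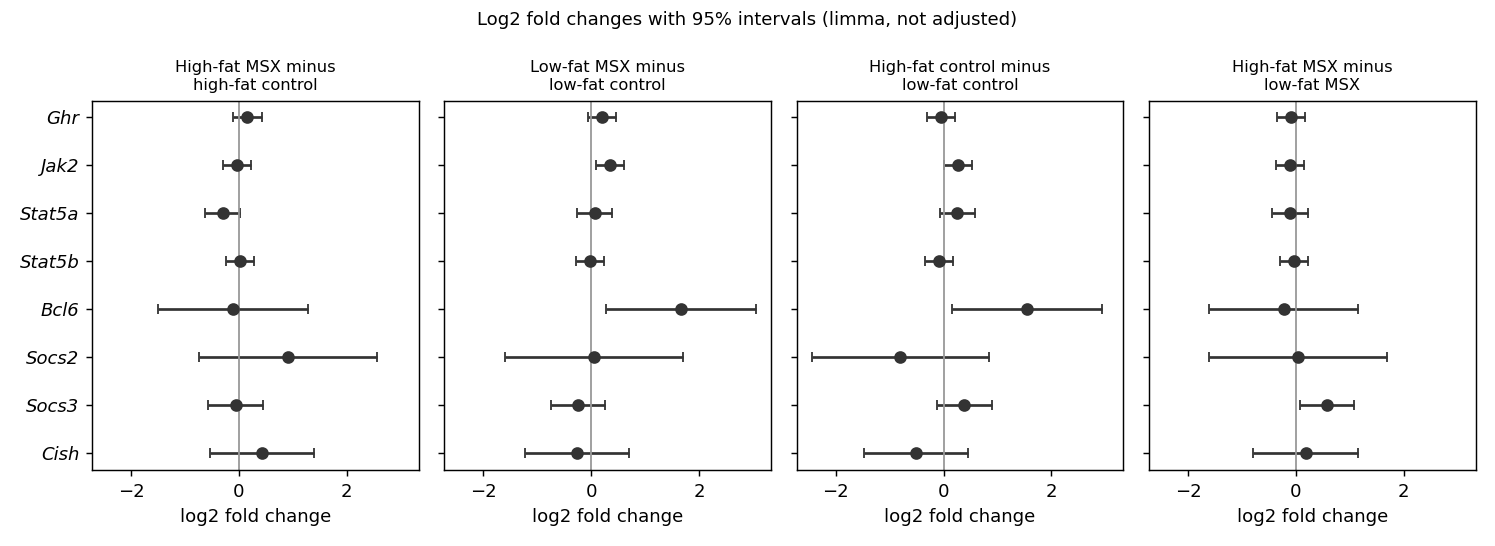
Log2 fold changes (points) of the 8 genes in 4 comparisons, with 95% intervals from limma that are not adjusted for the number of genes. The intervals of Ghr, Jak2, Stat5a and Stat5b are narrow and those of Bcl6, Socs2 and Cish wide, and 0 of the 8 genes passed the threshold after adjustment.

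Of 20 measured components of receptor and JAK/STAT signalling and of 19 further negative regulators, 0 rose and 0 fell in any of the 7 comparisons. With at most 0.261% of all genes called in a comparison, lists of this size had little room for a call. The first list had a median log2 fold change of −0.04 with MSX on the high-fat diet and 0.09 on the low-fat diet, and the second −0.05 and 0.12. Lifr, the receptor of leukaemia inhibitory factor, had a log2 fold change of 0.89 with MSX on the high-fat diet (SE 0.24, adjusted p = 0.492). Irs2, an adaptor of insulin signalling that JAK2 can also use, was at 0.64 (SE 0.19, adjusted p = 0.527). Among 15 liver transcription factors of the growth hormone network 0 passed, with Tox, a female-biased factor, at −0.60 (SE 0.19, adjusted p = 0.574) and Foxa1, a pioneer factor, at 0.38 (SE 0.12, adjusted p = 0.608) in that comparison. Onecut1, which encodes a hepatocyte factor that growth hormone induces in rodents, varied within groups by an SD of 1.14, number 8 of all genes.

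Among male-biased liver genes, 3 of 20 rose with MSX averaged over both diets and 0 fell, where 0.117% of all genes rose. Their median was 0.50 beside −0.0014 over all genes, and 20 of 20 lay above 0. This list, like the others, was chosen with earlier results of these data known. Its counts beside all genes are a description and not an independent test. Hsd3b5, a steroid-metabolising enzyme, rose by 1.59 (SE 0.16, adjusted p = 0.000748) and Nudt7, a peroxisomal hydrolase of coenzyme A, by 0.94 (SE 0.13, adjusted p = 0.00818), without overlap between the 6 arrays with and the 6 without extract. Cyp2u1, a cytochrome, rose by 0.82 (SE 0.14, adjusted p = 0.032), and lost its call in 8 of 12 cases with 1 array left out (highest adjusted p = 0.102). Of 22 female-biased genes 0 passed. For the average extract effect 15 of them lay below 0 and 7 above, with a median of −0.10. There 8 had an unadjusted p under 0.05 by limma, beside 9.66% of all genes. Of 8 genes of the IGF axis, 1 fell on the high-fat diet without extract, where 0.00451% of all genes fell. Igfbp2, a binding protein of insulin-like growth factors, had 9.74 ± 0.08 in high-fat control and 11.03 ± 0.11 in low-fat control (SD, n = 3 each, adjusted p = 0.00519 by limma). Without low-fat control replicate 3 its adjusted p was 0.05 and the call was lost. Igf1, the main growth factor that the pathway induces in liver, was at 10.20 ± 0.22 and 10.69 ± 0.16 in the same groups, a difference of −0.49 (SE 0.16, adjusted p = 0.555).

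For each gene the 3 named genes with the most similar pattern over the 12 arrays were taken by Pearson's r. With 22179 candidates high values arise in any case, so they are given as a description. Ghr was closest to Erp44 (r = 0.93), a chaperone of the endoplasmic reticulum, Nup210 (0.92), a nuclear pore protein, and Exph5 (0.90). Jak2 was closest to Cep192 (0.94), a centrosome protein, Ppp2r5e (0.93), a phosphatase subunit, and Sec11a (0.93), a signal peptidase subunit. Stat5a was closest to Fam78b (0.87), Pitpnm2os1 (0.86) and Ranbp1 (0.86), and Stat5b to Zfp444 (0.90), Cyp2d37-ps (0.88) and Il2 (0.88), the last at a log2 mean of 2.40.

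Bcl6 was closest to Tmem106a (0.89), Wdr1 (0.89), an actin regulator, and Fnbp1 (0.88), a membrane-bending protein. Tmem106a ranged from 6.40 to 7.33 where Bcl6 ranged from 5.69 to 9.06. Socs2 was closest to Zyg11a (0.94), a substrate receptor of ubiquitin ligation, Nrep (0.93) and Zfp292 (0.91), and with group means removed the r with Zyg11a was 0.97. Zyg11a ranged from 5.76 to 7.77. Cish was closest to Olfr918 (0.96), an olfactory receptor at 2.03 to 3.41, Wsb1 (0.91), a SOCS box protein, and Olfr1353 (0.88). Wsb1 ranged from 6.20 to 7.44. Socs3 was closest to H2-M5 (0.90), Lamtor5 (0.86) and Hecw2 (0.86), a ubiquitin ligase.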

How the data were processed

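The deposited log2 values (41345 probe sets, 12 arrays) are probe set summaries that the authors made. The submitters' processing notes name the Transcriptome Analysis Console. Neither its version nor the normalization method is given in the sources used here. Values were used as deposited. Probe sets with 1 symbol in the platform annotation (23521; 1814 had several, 16010 were not listed) were reduced to the one with the highest mean per gene, which left 22180 genes. Precision is limited by having 3 arrays a group.

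One linear model of the 4 group means over the 12 arrays was fitted with limma 3.58.1 (R 4.3.3), with default empirical Bayes settings (8 residual and 5.18 prior degrees of freedom). In each of 7 comparisons the Benjamini-Hochberg adjustment ran over 22180 genes, with a threshold of 0.05. Differences are the first-named group minus the second. Correlations used 100000 permutations (two-sided) and Benjamini-Hochberg adjustment over 12 relations. A further 8 relations, with cell type lists, acute phase genes or other probe sets, were chosen after seeing the data and adjusted over those 8. The procedures were tested on simulated data.

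The named genes were the 8 members; from each of 7 pathway lists those past the threshold and the 2 of lowest p in each of 4 comparisons, of which a part is printed; and the 3 most similar genes per member. Onecut1 was named after its value was seen. Members and lists were chosen with earlier results of these data known. The labels do not say that arrays of equal replicate number share a litter, batch or day, so they were not treated as pairs. The deviations of same-numbered arrays of different groups had an r between −0.13 and 0.11 (18 pairs, 2 above 0.1). For arrays of unequal number it lay between −0.09 and 0.16 (36 pairs, 1 above 0.1).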

Additional observations from a re-analysis of the deposited data

How the results depend on the processing

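Of the 8 genes, 0 passed the threshold under any alternative, in 848 values for 56 combinations of gene and comparison. The smallest adjusted p was 0.233, for Jak2 with MSX on the low-fat diet. In 34 of the 56 the direction was the same under all alternatives run, and in 22, none of them called, it changed under at least 1. The numbers of all genes called moved more. With an intensity trend and a robust prior they were 28 against 8 for MSX on the high-fat diet, 77 against 35 for MSX on the low-fat diet, 11 against 4 for the diet without extract, 151 against 58 for the average extract effect and 11 against 5 for the average diet effect. With genes of a mean of at least 5 they were 19, 71, 11, 163 and 11 in the same order. Fitting the groups of the comparison alone gave 2 for MSX on the high-fat diet and 10 on the low-fat diet, the mean of probe sets gave 23 for MSX on the low-fat diet, and array weights gave 92 for the average extract effect. The cause was not tested.

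The replicate block gave 5 genes for MSX on the high-fat diet and 20 for MSX on the low-fat diet, and 43 for the average extract effect, with 0 of the 8 genes called. Of 12 arrays, 5 deviated most closely with an array of their own number. The number to be met without pairing was not worked out, so this count does not decide on pairing. With each array left out in turn the numbers were 2 to 6, 6 to 28, 1 to 5, 0 to 1 (the high-fat diet with extract), 0 to 1 (the difference of the extract effects), 34 to 63 and 1 to 7 (the average diet effect). With 3 arrays a group and this spread, a doubling of Bcl6 or Socs2 between groups was not detectable.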
